A study of Mus musculus with 2 samples.

Results

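Among CD8+ T cells sorted from B16 melanomas, 706 of 4745 cells carried granzyme B transcripts together with transcripts of the checkpoint receptors PD-1, LAG-3 or TIM-3, with few or no UMIs of proliferation genes and of the Gzmc to Gzmn granzyme genes. They were chosen by their own measured UMIs, the unique molecular identifiers that count captured RNA molecules. A cell was taken when it had at least 2 UMIs of Gzmb, at least 2 UMIs of Pdcd1, Lag3 and Havcr2 together, under 5 UMIs of the mitosis genes Top2a, Mki67 and Birc5 together, under 8 UMIs of the replication genes Mcm3, Mcm5, Pcna, Tyms and Rrm2 together, and under 3 UMIs of the 6 genes Gzmc, Gzmd, Gzme, Gzmf, Gzmg and Gzmn together. Cells were considered where mitochondrial genes made up under 7.5% of the UMIs and the total lay between 500 and 50000. The cells are called Gzmb+Rec+ cells, where Rec stands for the 3 receptor genes, and the plus signs refer to RNA and not to protein.

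The study compared lean mice on normal chow (NC) with obese mice on western diet (WD), all of them male C57BL/6 mice labelled 16 weeks of age that bore transplanted B16 F0 tumors. B16 F0 is a mouse melanoma line, and no group carried a transgene or received a drug. Each diet gave 1 single-cell library made with the 10x Genomics 3′ chemistry from CD8-sorted tumor-infiltrating lymphocytes (TIL), and the number of mice behind a library is not stated in the sources used here. Of 2697 deposited NC cells 2456 were within the quality limits, and of 2623 deposited WD cells 2289 were. With 1 library per diet there is no replicate, so no test was made, and the diet cannot be told apart from any other difference between the libraries. The 95% intervals given in brackets cover counting error only and not the spread between mice, and a UMI level is given as CPM, the UMIs of a gene per 1000000 UMIs of the cells described. CPM intervals are exact Poisson, share intervals exact Clopper-Pearson and ratio intervals exact conditional binomial intervals. The CPM and ratio intervals treat each UMI as independent and do not cover the spread between cells. In a sum over cells, fewer cells with a transcript and less RNA per cell cannot be told apart, so the share of cells is given beside the level where the results turn on it.

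Granzyme B is a serine protease of cytotoxic granules that enters a target cell through pores made by perforin and starts its death. PD-1 (Pdcd1), LAG-3 (Lag3) and TIM-3 (Havcr2) are surface receptors that restrain T cells after repeated antigen contact. They are carried both by recently activated effector cells and by exhausted cells, and in tumors they mark T cells that have met antigen, with the transcription factor TOX as a regulator of the exhausted state. RNA of these genes does not say whether a cell killed or was restrained.

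The rule took 446 NC cells, or 18.2% of the cells within the limits (16.7 to 19.7), and 260 WD cells, or 11.4% (10.1 to 12.7). The intervals of the shares did not overlap, and the direction was the same when every cell was thinned to 5000 UMIs before the rule was applied (23.2% of 1893 NC cells and 12.7% of 1879 WD cells). Since these shares follow from the genes of the rule, they describe the choice of cells and are not a separate result. The steps of the rule differed between the libraries. Gzmb reached 2 UMIs in 1170 NC cells (47.6%, 45.6 to 49.6) and in 967 WD cells (42.2%, 40.2 to 44.3). Of these, 83.9% of the NC cells (81.7 to 86.0) and 71.9% of the WD cells (68.9 to 74.7) had at least 2 receptor UMIs. The mitosis limit kept 66.7% and 54.0% of the cells left, and the replication limit 83.4% and 76.5%. The limit on Gzmc to Gzmn was the step that kept the larger share in WD, 90.6% (86.6 to 93.7) against 81.7% in NC (78.2 to 84.8). Among all Gzmb cells that passed the proliferation limits and the Gzmc to Gzmn limit, at least 2 receptor UMIs were found in 71.9% of 620 NC cells (68.2 to 75.4) and in 53.2% of 489 WD cells (48.6 to 57.7).

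**Figure D1:**
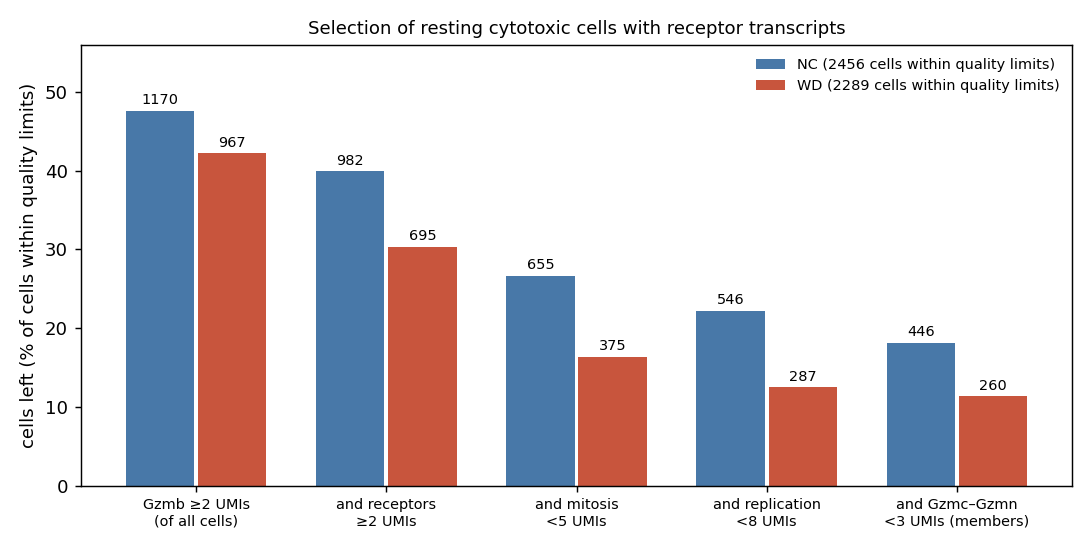
Cells left after each step of the rule, as a percentage of the cells within the quality limits (y axis), in the NC library (blue) and the WD library (red), with the number of cells above each bar. The bars start at 1170 NC and 967 WD cells with Gzmb and end at the 446 NC and 260 WD Gzmb+Rec+ cells, 18.2% and 11.4% of the cells.

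The depth of these cells was moderate. The NC cells held 4637088 UMIs in all, with a median of 9318 UMIs and 2438 genes per cell, and the WD cells 3140265 UMIs, with a median of 10833.5 UMIs and 2728.5 genes. The median mitochondrial share was 1.67% in NC and 2.30% in WD, and the part of these differences in the results below was not tested. The libraries shared 4 barcodes, of which 0 belonged to Gzmb+Rec+ cells in both. A further 9 NC and 13 WD cells met the UMI rule outside the quality limits and were left out.

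The label was checked against T cell genes and markers of other cells. All 446 NC and all 260 WD cells had UMIs of the 15 T cell identity genes, of which none was at 0, and Cd3g, a chain of the T cell receptor complex, was the most abundant with 11197 and 6583 UMIs. Cd8a, the coreceptor chain used in the sort, was at 812 CPM in NC and 729 CPM in WD. Markers of other cells were sparse. The 5 melanoma genes gave 4 UMIs in NC and 1 in WD, with Pmel and Tyr at 0 in both, the B cell genes 10 and 11 UMIs with Ms4a1 at 0, and the myeloid genes 87 and 72 UMIs with Csf1r and Adgre1 at 0 and Cd68 the most abundant. CD4 and regulatory T cell genes gave 44 and 14 UMIs with Foxp3 the most abundant, and the NK markers 18 UMIs in NC and 0 in WD. The dendritic genes were the more abundant in WD, with a summed 37.3 CPM in NC and 118 CPM in WD. Their most abundant gene was Cd74 with 146 and 288 UMIs, while Flt3 was at 0 in both libraries and Siglech at 0 in NC.

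The word resting refers to transcripts and has a limit. No mitosis UMI was seen in 65.2% of the NC cells and 56.2% of the WD cells, but no replication UMI in only 25.6% and 18.1%. Pcna, the clamp of the replication fork, was seen in 62.3% of NC and 71.9% of WD cells (42.1% and 48.3% at 5000 UMIs per cell), against 33.7% and 42.0% of the reference cells for background, 220 NC and 248 WD cells chosen by transcripts of naive T cell genes, Ccr7 and Lef1 among them. The cells were thus low in these transcripts by choice and not free of them. Cells just inside and just outside each limit are given as a description. In NC, 9 cells had 4 mitosis UMIs and 5 had 5, with Prf1 at 880 and 895 CPM, and 41 cells had 2 Gzmb UMIs while 78 had 1, with Prf1 at 185 and 208 CPM. In WD, 38 cells had 2 Gzmb UMIs and 62 had 1, with Prf1 at 129 and 103 CPM. At the receptor limit, 40 NC cells had 2 receptor UMIs and 55 had 1, and 45 WD cells had 2 while 74 had 1.

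Within the cells that the rule took, Gzmb and the 3 receptor genes were lower in WD. The rule chose cells by these genes, so their levels describe the choice and support no difference between the diets. Gzmb had a median of 11 UMIs per cell in NC (quartiles 5 and 21, highest 173) and 7 in WD (3 and 14, highest 101), which gave 1684 and 940 CPM in the summed cells, a log2 ratio of WD over NC of -0.84 (-0.90 to -0.78). The summed receptors had a median of 8 UMIs per cell in NC and 5 in WD. The log2 ratio was -0.80 for Havcr2 (168 and 96.8 CPM), -0.63 for Lag3 (476 and 308 CPM) and -0.41 for Pdcd1 (311 and 233 CPM). The 250 bases around the RefSeq start of Gzmb (chr14:56262305-56262554, minus strand, GRCm38.p6, 220 bases before the start and 30 from it) are shown because the gene defines the cells, with the match to the AP-1 letters TGANTCA in capitals. The letters were searched on both strands and are found in 6.68% of the 32851 promoter windows of the same length.
Gzmb: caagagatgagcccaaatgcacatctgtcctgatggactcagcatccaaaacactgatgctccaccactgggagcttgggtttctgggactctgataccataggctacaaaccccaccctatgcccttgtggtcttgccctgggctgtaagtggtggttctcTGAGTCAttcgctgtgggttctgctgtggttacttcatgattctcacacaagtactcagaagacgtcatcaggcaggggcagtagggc

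The 3 receptors were found together in most NC cells and in fewer WD cells. At least 1 UMI of each of Pdcd1, Lag3 and Havcr2 was present in 236 of 446 NC cells (52.9%, 48.2 to 57.6) and in 101 of 260 WD cells (38.8%, 32.9 to 45.1). At 5000 UMIs per cell the shares were 28.2% of 390 NC cells (23.8 to 33.0) and 12.5% of 232 WD cells (8.53 to 17.5), so the direction was the same at equal depth. As the rule used these 3 genes, the patterns describe the chosen cells and support no difference between the diets. Pdcd1 with Lag3 and no Havcr2 was the next most frequent pattern, with 26.2% of NC and 31.2% of WD cells. Lag3 was the only receptor in 8.07% and 11.5%, and Pdcd1 the only one in 2.24% (1.08 to 4.08) and 6.15% (3.56 to 9.80). Havcr2 alone was seen in 1 cell of each library. By single receptor, Lag3 was seen in 94.4% of NC and 89.6% of WD cells, Pdcd1 in 84.5% and 80.0%, and Havcr2 in 63.5% and 51.2%. After thinning, Havcr2 was seen in 45.1% of NC cells (40.1 to 50.2) and 28.9% of WD cells (23.1 to 35.2), against 4.33% and 1.65% of the reference cells, which should hold little of it.

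**Figure D2:**
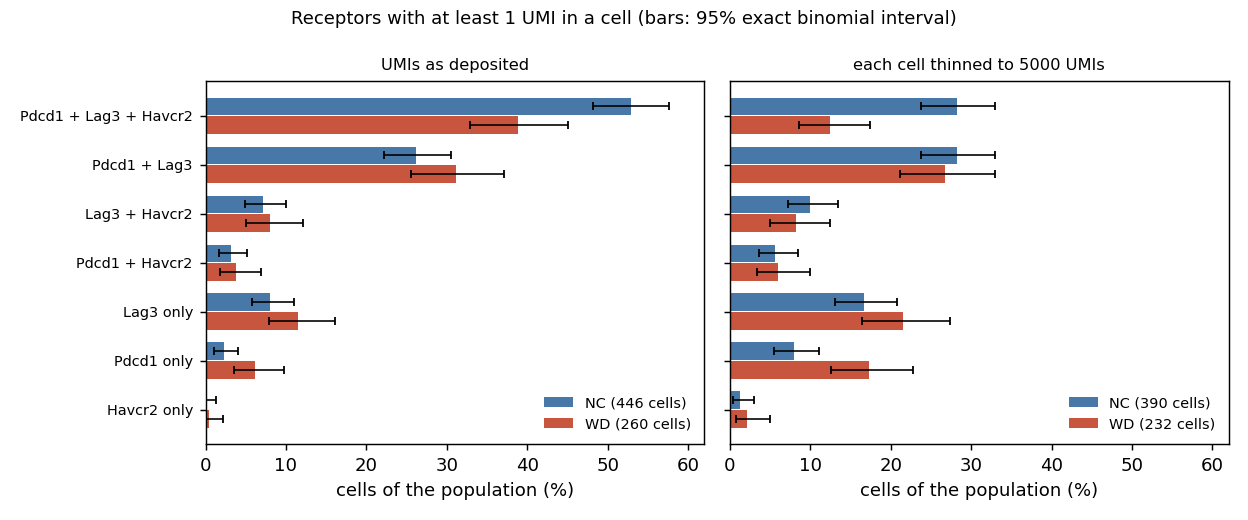
Percentage of Gzmb+Rec+ cells (x axis) with at least 1 UMI of each combination of Pdcd1, Lag3 and Havcr2 (y axis), in NC (blue) and WD (red), as deposited on the left and at 5000 UMIs per cell on the right; lines are 95% exact binomial intervals. All 3 receptors were seen in 52.9% of NC and 38.8% of WD cells as deposited, and in 28.2% and 12.5% after thinning.

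Other genes were ordered by the number of receptors seen. Cells with more receptors were also deeper (medians of 6995, 8038 and 10881 UMIs for 1, 2 and 3 receptors in NC, and of 7723, 10375 and 13336 in WD), and the part of depth was not tested. Prf1, the gene of perforin, was at 240 (191 to 297), 377 (346 to 410) and 643 CPM (614 to 673) in NC cells with 1, 2 and 3 receptors. In WD it was at 98.7 (70.2 to 135), 208 (184 to 235) and 329 CPM (301 to 360). The intervals did not overlap, and Prf1 was lower in WD at each number of receptors. Ccl3, a chemokine that draws T cells and myeloid cells, was at 679, 904 and 2032 CPM in NC and at 288, 817 and 1770 CPM in WD. The costimulatory receptor gene Tnfrsf9 (4-1BB) followed the same order, from 123 to 334 CPM in NC and from 96.1 to 458 CPM in WD. The reverse order was seen for Ly6c2, a surface marker of memory and interferon-exposed T cells, with 1438, 907 and 616 CPM in NC and 830, 702 and 301 CPM in WD. Gzmk, the granzyme of effector-memory cells, was lower in this order, from 143 to 91.7 CPM in NC and from 240.4 to 78.6 CPM in WD. Tox showed no such order, and its intervals overlapped in both libraries (99.8, 143 and 143 CPM in NC and 187, 184 and 192 CPM in WD). Junb was higher in WD in each class, with log2 ratios of 0.99, 1.30 and 0.94, and Mt1 was lower in each, with -1.22, -1.45 and -1.26. Xcl1 differed in direction between the classes, with -1.51 (-1.90 to -1.13) at 1, -1.34 (-1.48 to -1.20) at 2 and 1.37 (1.254 to 1.496) at 3 receptors.

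The comparison of WD with NC inside the Gzmb+Rec+ cells covered 6976 genes with at least 10 CPM in 1 library, the rule genes left out. Of these, 470 genes (6.74%) were at least 1.5-fold higher in WD and 197 (2.82%) at least 1.5-fold lower, and the median log2 ratio of all genes was 0.05. The split between the directions depended on the scaling, since with TMM factors in place of the total UMIs 338 genes were past the fold in WD and 268 in NC, so that 55.8% and not 70.5% of the genes past the fold were higher in WD. Ratios near 0 should be read with this in mind.

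The extremes of the comparison, 12 genes on each side, were taken from genes that reached 50 CPM in a library and had 20 UMIs or more in both. Of the genes higher in WD, several owed their level to a handful of cells. Penk, which encodes the opioid precursor proenkephalin, was at 28.9 CPM (24.2 to 34.2) in NC and 150.0 CPM (137 to 164) in WD, a log2 ratio of 2.38 (2.10 to 2.66), with 1.93 to 3.39 over the alternatives. By number of receptors, Penk was lower in WD in cells with 1 receptor (-1.62, -2.77 to -0.58, on 30 and 11 UMIs) and higher in those with 2 (2.32) and 3 (3.12). It was seen in 20 NC and 23 WD cells, and the 10 cells with most Penk held 89.6% and 91.7% of its UMIs. Ccl1, a chemokine ligand of CCR8, was at 97.7 CPM in NC (88.9 to 107) and 460 CPM in WD (436 to 484), a log2 ratio of 2.23 (2.08 to 2.39), with 86.98% and 93.01% of its UMIs in 10 cells. It was seen in 7.17% of NC cells (4.96 to 9.98) and 16.9% of WD cells (12.6 to 22.04), or in 5.64% and 14.2% at 5000 UMIs, against 0% and 2.06% of the reference cells. Ccl1 was thus seen in a larger share of cells in WD, and its summed level was higher, with most of it in 10 cells of each library. Without the cells that had a UMI of Cd74, H2-Aa, H2-Ab1 or Siglech, an alternative chosen after seeing the data, its ratio was 0.79. In WD most Ccl1 came from cells with all 3 receptors, at 855.5 CPM (809 to 904) against 118 CPM (106 to 131) in such NC cells, while no UMI was counted in WD cells with 1 receptor.

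Cd81, a tetraspanin, and Cd74, the invariant chain of MHC class II, were also carried by few cells. Cd81 was at 20.5 and 67.2 CPM (log2 ratio 1.71, 1.36 to 2.08), with 88.4% and 80.6% of its UMIs in 10 cells. Over the alternatives its ratio ran from 0.67, without the cells that had those dendritic transcripts, to 2.89. Cd74 was at 31.5 and 91.7 CPM (1.54, 1.25 to 1.84), with 60.3% and 72.6% in 10 cells, and was seen in 49 cells of each library. With all deposited cells in place of those within the quality limits, the ratio of Cd74 turned to -0.38, and in cells with all 3 receptors it was 0.58. Gm26917, an RNA that overlaps ribosomal RNA sequence, was at 256 and 632 CPM (1.30, 1.20 to 1.41). It made up at least 0.5% of the UMIs in 16 NC and 14 WD cells, and without those cells its ratio was 0.08. The parts of dendritic cell RNA and of nuclear RNA in these ratios were not tested.

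The remaining genes of the upper group were found in from 66 WD cells for Kcnq1ot1, where 10 cells held 48.6% of its WD UMIs, to 256 WD cells for Junb. Junb, a subunit of the AP-1 transcription factor, was at 815 CPM in NC (789 to 842) and 1810.0 CPM in WD (1763 to 1858), a log2 ratio of 1.15 (1.09 to 1.21), and was seen in 94.8% and 98.5% of cells. Dusp1, a phosphatase that switches off MAP kinases, was at 127 and 308 CPM (1.27, 1.13 to 1.42), seen in 55.4% of NC and 80.8% of WD cells and, at 5000 UMIs, in 38.5% and 63.4% against 54.3% and 63.0% of the reference cells. Both belong to the immediate early genes, which T cells induce within minutes of stimulation and also of handling. Kdm6b, a histone H3 lysine demethylase, had a log2 ratio of 1.16 (24.2 and 54.1 CPM). Tent5a, a poly(A) polymerase, had one of 1.13 (30.6 and 66.9 CPM), with 0.58 to 1.82 over the alternatives. In WD, 10 cells held 42.4% of the Tent5a UMIs. Fam110a was at 21.997 and 52.9 CPM (1.26), the imprinted antisense RNA Kcnq1ot1 at 23.3 and 57.0 CPM (1.29, but 0.31 at 2000 UMIs per cell), and Rpl10-ps3, a copy of a ribosomal protein gene that shares sequence with Rpl10, at 94.9 and 205 CPM (1.11). Reads of Rpl10-ps3 and Rpl10 may have been split between them.

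**Figure D3:**
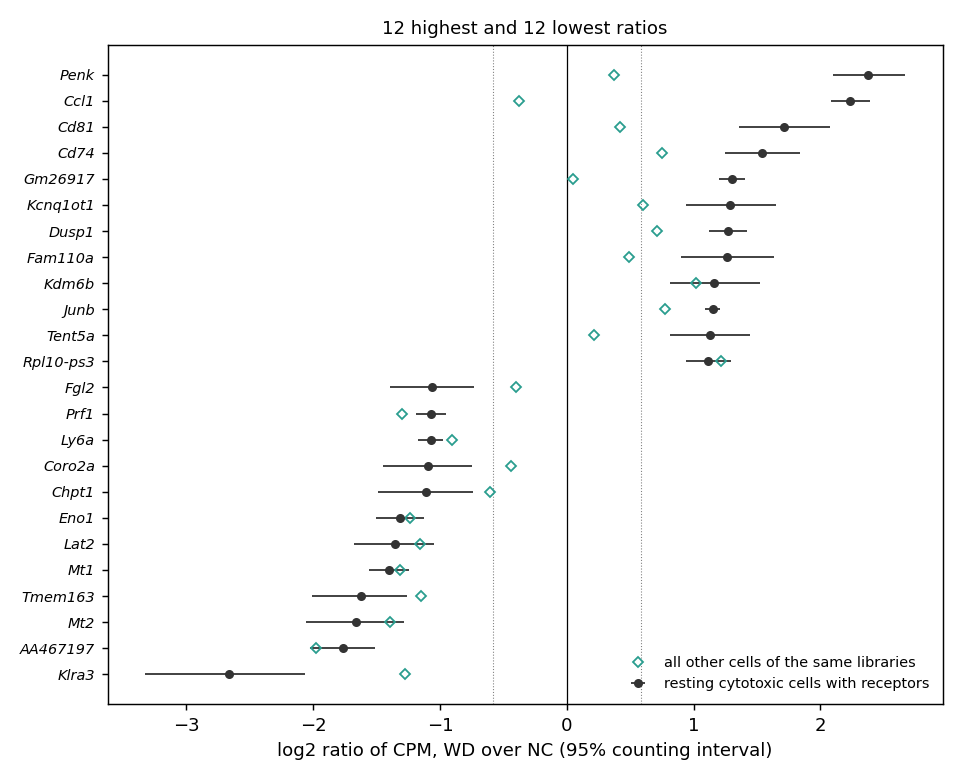
Log2 ratio of CPM, WD over NC (x axis), of the 12 genes at each extreme in Gzmb+Rec+ cells (filled circles with 95% counting intervals), and for the same genes in all other cells of the libraries (open diamonds); dotted lines mark 1.5-fold. Penk, at 2.38, and Klra3, at -2.66, are the extremes, and Ccl1 lies at 2.23 in the Gzmb+Rec+ cells and at -0.38 in the other cells.

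The genes lower in WD included the effector gene Prf1. It was at 530 CPM in NC (509 to 551) and 252 CPM in WD (235 to 270), a log2 ratio of -1.07 (-1.19 to -0.95), and was seen in 80.7% of NC cells (76.7 to 84.3) and 63.1% of WD cells (56.9 to 69.0). At 5000 UMIs the shares were 74.6% and 50.4%, against 19.2% and 14.0% of the reference cells. Klra3, an inhibitory receptor of the Ly49 family, had the lowest ratio among genes of at least 50 CPM in a library and 20 UMIs in both, -2.66 (-3.32 to -2.07), from 50.5 to 7.96 CPM. Its paralogs are alike in sequence, so that its reads cannot be assigned with certainty, and it was seen in 61 NC and 14 WD cells. AA467197, also named Nmes1, was at 166 and 48.7 CPM (-1.77, -2.03 to -1.52), seen in 51.1% and 23.5% of cells. Ly6a, the interferon-induced surface protein Sca-1, was at 718 and 341 CPM (-1.07), and Fgl2, a fibrinogen-like effector protein, at 68.4 and 32.8 CPM (-1.06). Lat2, an adaptor of lymphocyte signalling, was at 87.3 and 34.1 CPM (-1.36), Coro2a, a coronin, at 61.0 and 28.7 CPM (-1.09, but -0.30 at 2000 UMIs per cell), and Chpt1, which makes phosphatidylcholine, at 55.0 and 25.5 CPM (-1.11). Each of these genes was more abundant in the NC cells by more than its counting interval.

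Several of the lowest ratios belonged to genes that bind or move zinc. Mt1 and Mt2 encode metallothioneins, small proteins that bind zinc and copper, and their transcription follows free zinc through the factor MTF-1. Mt1 was at 352 CPM in NC (335 to 369) and 133 CPM in WD (121 to 147), a log2 ratio of -1.40 (-1.56 to -1.25). Mt2 was at 69.4 and 21.97 CPM (-1.66, -2.06 to -1.28, but -0.99 with the mean of each cell's CPM), Mt3 at 55.4 and 26.75 CPM (-1.05), and Tmem163, a zinc transporter, at 72.7 and 23.6 CPM (-1.62). Mt1 was seen in 66.6% of NC cells (62.003 to 71.0) and 49.2% of WD cells (43.0 to 55.5), and at 5000 UMIs in 59.5% and 39.7%, against 9.62% and 6.17% of the reference cells. Of the 6 tested genes of the metallothionein and zinc list, 4 were at least 1.5-fold lower (background 2.82%) and none higher, the importer Slc39a10 among them (21.1 and 7.01 CPM), with a list median of -1.23 beside 0.05 over all genes tested. The summed list was at 543 CPM in NC and 232 CPM in WD. It was lower in WD in each other population as well, with a log2 ratio of -1.10 in Gzmb cells without receptors and -0.45 in receptor cells without Gzmb. The windows around the RefSeq starts of Mt1 (chr8:94178869-94179118), Mt2 (chr8:94172398-94172647) and Mt3 (chr8:94152387-94152636), all on the plus strand of GRCm38.p6, are shown since all 3 neighbouring genes were past the fold in the same direction, with matches to the letters TGCNCNC of the metal response element in capitals. Both strands were searched, and Mt1 held 3 matches, Mt2 5 and Mt3 none. At least 3 matches are found in 4.99% and at least 5 in 0.411% of all windows.
Mt1: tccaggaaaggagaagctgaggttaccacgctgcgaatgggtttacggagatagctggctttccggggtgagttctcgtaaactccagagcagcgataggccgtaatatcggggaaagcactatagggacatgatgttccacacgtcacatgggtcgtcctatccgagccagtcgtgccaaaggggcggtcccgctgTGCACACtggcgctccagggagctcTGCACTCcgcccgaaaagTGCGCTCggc
Mt2: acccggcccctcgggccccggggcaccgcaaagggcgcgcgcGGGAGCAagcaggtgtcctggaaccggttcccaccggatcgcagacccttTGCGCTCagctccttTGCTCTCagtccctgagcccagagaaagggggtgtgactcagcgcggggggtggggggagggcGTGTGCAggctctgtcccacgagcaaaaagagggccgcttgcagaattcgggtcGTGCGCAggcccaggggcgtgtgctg
Mt3: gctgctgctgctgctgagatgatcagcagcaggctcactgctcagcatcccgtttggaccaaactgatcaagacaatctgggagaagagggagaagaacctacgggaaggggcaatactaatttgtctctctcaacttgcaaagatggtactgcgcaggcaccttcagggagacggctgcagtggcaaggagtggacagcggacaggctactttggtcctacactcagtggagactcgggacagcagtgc

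The lists of known genes gave a picture by function. Of 18 tested cytotoxic granule genes other than Gzmb, 14 were lower and 4 higher in WD, with a median of -0.23, and 3 were past 1.5-fold, all of them lower (background 2.82%). These were Prf1 and the granzyme inhibitors Serpinb9 (81.5 and 39.2 CPM, -1.06) and Serpinb6b (122 and 73.9 CPM, -0.73), which protect the killer cell from its own proteases. Nkg7, a membrane protein of the granules, was at 3210.2 and 2497 CPM (-0.36). Gzma was at 129 and 123 CPM (-0.06, -0.25 to 0.12), with 59.2% and 84.2% of its UMIs in 10 cells, and Gzmk at 106 and 128 CPM (0.26).

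Effector cytokines and chemokines did not move together. Of 16 tested genes 11 were higher and 5 lower in WD, with 4 past 1.5-fold, all of them higher (background 6.74%). The list median was 0.29, with 0.03 to 0.54 over the alternatives, beside 0.05 over all genes tested. The summed list was lower by -0.07 on the log2 scale, so that median and sum differ in sign. Ifng, the gene of interferon gamma, was at 921 and 803 CPM (-0.20, -0.27 to -0.13). Ccl3 was at 1579 and 1206 CPM (-0.39) and Ccl4 at 3479 and 2477 CPM (-0.49), whereas Ccl5 was nearly equal at 9856 and 10098 CPM (0.03). The genes past the fold were Csf2, Ccl1, Ccl9 (6 NC and 12 WD cells) and Cxcl10 (28 and 51 cells). Csf2, the gene of GM-CSF, was at 2.80 CPM in NC (1.49 to 4.79) and 34.7 CPM in WD (28.5 to 41.9), but its 109 WD UMIs lay in 14 cells, 1 of which held 74. Xcl1, a chemokine for cross-presenting dendritic cells, was at 617 and 631 CPM over classes of opposite direction. It was seen in 16.1% of NC and 37.7% of WD cells, and 10 cells held 77.2% of its NC UMIs and 53.2% of its WD UMIs, so that like sums had unlike distributions. At 5000 UMIs the shares were 13.6% and 31.0% (25.1 to 37.4). The reference cells held Xcl1 at 191 CPM in NC and 157 CPM in WD, so they give no background for this gene.

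Receptors other than those of the rule were mixed. Of 15 other inhibitory receptors tested, 11 were lower and 4 higher in WD, 6 and 2 of them past 1.5-fold (background 2.82% lower and 6.74% higher), with a median of -0.31. The lectin receptors Klrc1 (350 and 184 CPM, -0.93), Klrd1 (1026 and 606 CPM, -0.76) and Klre1 (78.3 and 41.7 CPM, -0.91) and the ectonucleotidase CD39 (Entpd1, 78.7 and 46.8 CPM, -0.75) were among the lower. Ctla4 was higher at 167 and 223 CPM (0.42, 0.27 to 0.57), as was Cd200r1 at 12.9 and 30.6 CPM (1.24). Of the 10 tested NK type receptor genes, 5 were past 1.5-fold lower and 2 higher (background 2.82% and 6.74%), with a median of -0.64. Among 13 costimulatory receptors 1 was past the fold, higher in WD, a share close to the background of 6.74%. This was Tnfrsf4 (OX40), at 114 CPM in NC (104 to 124) and 214 CPM in WD (198 to 231). Tnfrsf9 was at 287 and 301 CPM (0.07, -0.05 to 0.19).

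Of 26 tested transcription factors of exhaustion and effector fate, 15 were higher and 11 lower in WD, a split close to that of all genes tested (56.6% higher). Past 1.5-fold were 7, all of them higher (background 6.74% of genes), and the list median was 0.28. The 7 were Nr4a1 and Nr4a2, orphan receptors induced by T cell receptor signals, Eomes and Bhlhe40, Maf, Ikzf2 and Foxo1. Nr4a2 was at 119 and 203 CPM (0.76, 0.60 to 0.93), Bhlhe40 at 366 and 614 CPM (0.75) and Eomes at 23.9 and 48.4 CPM (1.02). Tox was at 140 CPM in NC (129 to 151) and 188 CPM in WD (173 to 204), a log2 ratio of 0.43 (0.27 to 0.59), which lies under the fold. It was seen in 63.2% of NC and 76.9% of WD cells, and in 42.8% and 57.8% at 5000 UMIs. Tcf7, the factor of stem-like T cells, was at 14.0 and 13.4 CPM.

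Immediate early and heat shock genes had 23 of 30 genes higher in WD and 15 past 1.5-fold, with none past the fold in the other direction and a median of 0.58 (background 6.74% of genes). Fos was at 243 and 411 CPM (0.76), Nfkbia, an inhibitor of NF-kappaB, at 721 and 1221 CPM (0.76), Ier5 at 90.6 and 182 CPM (1.01), and Zfp36, which destabilizes cytokine mRNAs, at 92.7 and 172 CPM (0.89). The heat shock genes Hspa8 (1522 and 1505 CPM) and Dnaja1 (428.5 and 385 CPM) were within 1.5-fold. Hspa1b had the highest ratio of the list, 2.20, on 33 and 103 UMIs of which all in NC and 89.3% in WD lay in 10 cells, and its near-identical copy Hspa1a had -0.04. The summed list was higher in WD in all 5 other populations as well, by 0.27 to 0.34 on the log2 scale against 0.42 in the Gzmb+Rec+ cells.

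Metabolic lists differed in direction. In cholesterol synthesis all 21 tested genes were higher in WD, 11 of them past 1.5-fold (background 6.74%), with a median of 0.59. These genes are switched on together by SREBP2 when a cell senses little sterol. Hsd17b7 had the highest ratio (5.18 and 13.7 CPM, 1.40, 0.65 to 2.19), and the sterol oxidase gene Msmo1 was at 17.9 and 38.5 CPM (1.11). Fdps, which makes farnesyl diphosphate, was at 41.6 CPM in NC (35.96 to 47.9) and 77.4 CPM in WD (67.96 to 87.7). Hmgcs1, an early enzyme of the pathway, was at 33.6 and 44.3 CPM (0.40, 0.06 to 0.74). The levels were low, and the intervals of 13 of the 21 genes lay above 0. The summed list was at 536 CPM in NC and 743 CPM in WD, a log2 ratio of 0.47 (0.39 to 0.55). It was 0.23 (0.04 to 0.41) in Gzmb cells without receptors, 0.18 (0.06 to 0.30) in receptor cells without Gzmb, 0.48 (0.33 to 0.62) in cells with Gzmc to Gzmn and 0.30 (0.26 to 0.34) in cycling cells, and the difference between populations was not tested. The window of Hmgcs1 (chr13:119690131-119690380, plus strand, GRCm38.p6) is shown for the pathway, with the match to the sterol regulatory letters TCACNCCAC in capitals, which were found on either strand of 1.07% of all windows.
Hmgcs1: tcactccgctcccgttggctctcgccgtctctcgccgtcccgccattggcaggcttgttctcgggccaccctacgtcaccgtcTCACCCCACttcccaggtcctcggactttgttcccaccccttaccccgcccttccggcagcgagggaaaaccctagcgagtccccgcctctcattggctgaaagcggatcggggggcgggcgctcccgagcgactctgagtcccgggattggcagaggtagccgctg

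Of 18 glycolysis and hypoxia genes 14 were lower and 4 higher in WD (43.4% of all genes tested were lower), with a median of -0.34, and 2 were past 1.5-fold, both lower (background 2.82%). Eno1, the gene of enolase, was at 240 CPM in NC (226 to 254) and 96.5 CPM in WD (85.9 to 108), a log2 ratio of -1.31. It and the hypoxia-induced Bnip3 (40.1 and 14.3 CPM, -1.48) were those genes, and Eno1 shares sequence with its copy Eno1b. Ldha, the gene of lactate dehydrogenase, was at 837 and 626 CPM (-0.42), Aldoa at 1089 and 798 CPM (-0.45), and Gapdh at 2349 and 2112 CPM (-0.15). The 13 genes of the mitochondrial genome had a median of 0.39, with mt-Co3 at 2340 and 3881 CPM (0.73) and mt-Co1 at 2957 and 2852 CPM (-0.05), and the median mitochondrial share of the cells was also the higher in WD, whose part was not tested. Fatty acid genes were near the background, with 0 of 16 past the fold and a median of 0.08.

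In the type I interferon list 17 of 23 genes were lower and 6 higher in WD, 3 of them past 1.5-fold and lower (background 2.82%), with a median of -0.19. This median turned to 0.020 with the mean of each cell's CPM in place of the summed cells. Isg15 was at 152 and 115 CPM (-0.41), Isg20 at 116 and 77.1 CPM (-0.60) and Rsad2 at 19.4 and 10.5 CPM (-0.89). The summed list was higher in WD by 0.11 on the log2 scale and so differs in sign from the median, with Ifi27l2a at 1852 and 2497 CPM (0.43). Of 28 genes of the interferon gamma GTPases and antigen presentation 23 were lower and 5 higher, none past the fold, with a median of -0.15. Of 20 survival and death genes 12 were higher and 8 lower in WD, with a median of 0.03, near that of all genes tested, and 4 were past the fold (background 6.74% higher). Bcl2 (44.2 and 71.7 CPM, 0.70) and Bcl2l1 (10.6 and 27.7 CPM, 1.39) were 2 of the 4, all higher in WD, and Mcl1 was at 301 and 318 CPM.

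The other lists held few genes past the fold or had them on both sides. Of 20 residency and homing genes, 11 were higher and 9 lower in WD, with 6 and 3 past 1.5-fold (background 6.74% and 2.82%) and a median of 0.08. Cd69, which keeps T cells in tissue, was higher (140 and 250 CPM, 0.83), while the integrin gene Itga1 (29.8 and 13.7 CPM, -1.12) and the interleukin 7 receptor gene Il7r (57.4 and 28.3 CPM, -1.02) were lower. Of 20 Jak-Stat and cytokine receptor genes 2 were past the fold in each direction (background 6.74% higher and 2.82% lower), with a median of 0.09. The feedback inhibitor Socs3 (log2 ratio 0.87) and the kinase gene Pim1 (235 and 393 CPM, 0.74) were higher, and both chains of the interleukin 12 receptor, Il12rb1 (25.7 and 14.0 CPM, -0.87) and Il12rb2 (21.6 and 10.2 CPM, -1.08), were lower. Among 16 S100, galectin and annexin genes 2 were past the fold, both lower (background 2.82%), with a median of -0.05. They were Lgals3 (564 and 297 CPM, -0.92) and Anxa1 (17.0 and 9.87 CPM, -0.79). None of the 15 T cell identity genes was past the fold.

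**Figure D4:**
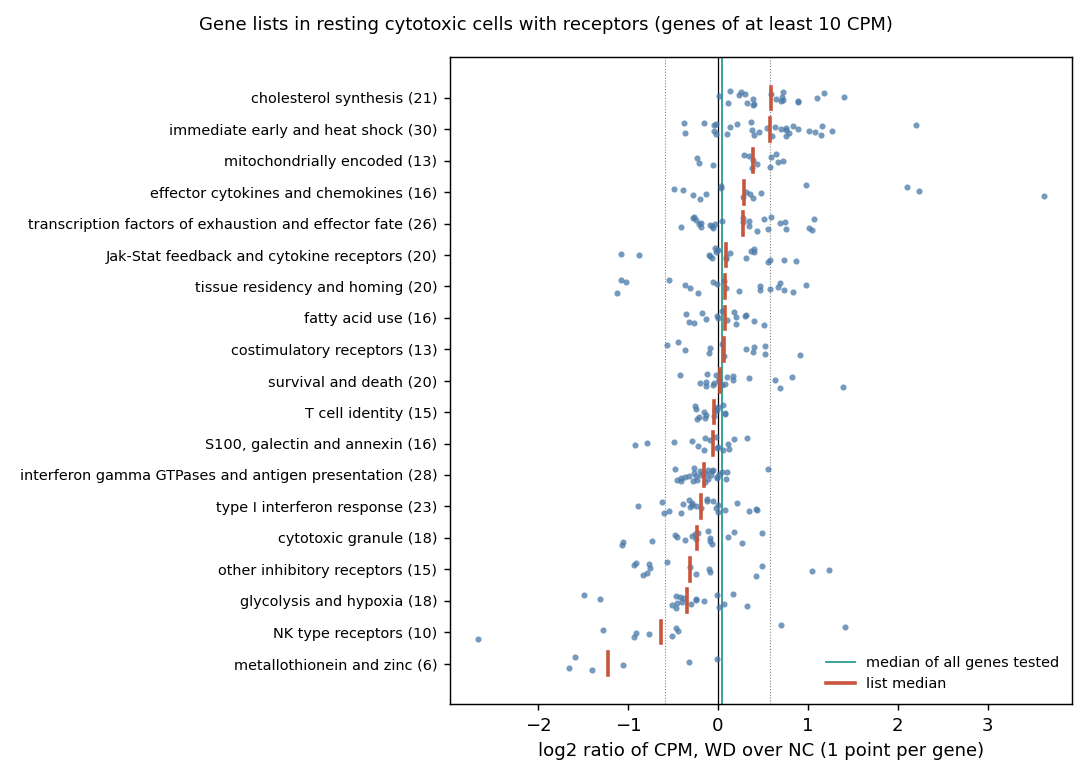
Log2 ratio of CPM, WD over NC (x axis), of each gene of at least 10 CPM in the 19 lists (y axis, number of genes tested in brackets) in Gzmb+Rec+ cells; red bars are list medians, the green line the median of all genes tested and dotted lines 1.5-fold. Medians run from -1.23 for metallothionein and zinc to 0.59 for cholesterol synthesis, and the highest point, Csf2 at 3.63, rests on 14 WD cells.

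The Gzmb+Rec+ cells were then set against other cells of the same library. The compared cells were 174 NC and 229 WD resting Gzmb cells with under 2 receptor UMIs (Gzmb+Rec-), 288 and 237 resting receptor cells with under 2 Gzmb UMIs (Gzmb-Rec+), 100 and 27 resting cells with receptors and at least 3 Gzmc to Gzmn UMIs, and 436 and 408 cells with Gzmb and receptors over a proliferation limit (cycling). Of the reference cells, 8 in NC and 2 in WD were also Gzmb+Rec+ cells. As the rule separates these cells by their RNA, the values describe them and no test was made.

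Against Gzmb+Rec- cells, 435 of 6792 genes (6.4%) were at least 1.5-fold higher in both libraries and 364 (5.36%) lower. Tnfrsf9 was at 287 CPM against 30.9 CPM in NC and at 301 against 24.4 CPM in WD, log2 ratios of 3.22 and 3.62. Rgs16, a brake on G protein signals, gave 2.82 and 2.65, Ccl3 2.62 and 2.07, Prf1 2.68 and 1.78 and the interferon regulatory factor gene Irf8 1.41 and 2.35. Tox was also higher, by 1.13 and 0.96. Among the genes higher in the cells without receptors, Gzma was at 129 against 1307 CPM in NC and at 123 against 771 CPM in WD, Klf2, a factor of quiescence, at 251 against 1263 CPM and 305 against 936 CPM, and S1pr1, the exit receptor that it controls, at 14.0 against 86.5 CPM and 19.4 against 73.9 CPM. Tcf7 gave -2.32 and -2.23 and Ccl5 -0.74 and -0.71. The cells without receptors were shallower, with medians of 5037 and 6259 UMIs, and at 5000 UMIs per cell 512 genes were higher and 312 lower of 6641. Gzmb itself, chosen in both, was higher than in Gzmb+Rec- cells in NC (0.73) and lower in WD (-0.14).

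Against Gzmb-Rec+ cells, 106 of 6994 genes (1.52%) were higher in both libraries and 301 (4.3%) lower. The effector genes Ccl3 (log2 ratios of 1.99 in NC and 2.29 in WD), Ccl4 (2.06 and 2.22), Prf1 (1.80 and 2.11) and Ifng (921 against 325 CPM in NC and 803 against 395 CPM in WD) were higher in the Gzmb+Rec+ cells, with Mt1 (2.26 and 1.28) and Lgals3, the gene of galectin 3 (1.92 and 1.47). Of the genes lower in them, Tcf7 was at 14.0 against 82.2 CPM in NC and 13.4 against 75.04 CPM in WD, and Id3, Slamf6 and Ccr7 gave -2.50 and -2.05, -2.35 and -2.05, and -2.41 and -1.41. Dapl1 was lower still (-4.34 and -3.10). Cd74 and Tyrobp, genes of myeloid and dendritic cells, were also lower (-2.69 and -2.96, and -3.56 and -2.79), as was Gm26917 (-2.93 and -1.43), which made up at least 0.5% of the UMIs of 24.0% of the NC and 11.4% of the WD Gzmb-Rec+ cells. Tox had intervals that spanned 0 (-0.10, -0.30 to 0.10, and -0.01, -0.19 to 0.17).

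The cells with Gzmc to Gzmn transcripts held more RNA of some granule genes, while chemokine and cytokine genes were mixed. Ccl3 was at 1579 CPM in Gzmb+Rec+ cells against 2154 CPM in NC and at 1206 against 1027 CPM in WD, and Ifng at 921 against 1065 CPM and 803 against 618 CPM. Prf1 was lower in the Gzmb+Rec+ cells by -1.11 in NC and -1.91 in WD, Gzmb by -1.15 and -1.61, and Serpinb6b by -1.11 and -2.71, while Xcl1 was higher by 2.20 and 2.34 and Ccl5 by 0.90 and 1.49. Osteopontin (Spp1) was at 55.0 against 260.5 CPM in NC and at 68.1 against 559 CPM in WD. In the 27 WD cells Gzma had no UMI. Of 6658 genes, 185 (2.78%) were higher in both libraries and 127 (1.91%) lower, but at 5000 UMIs per cell these counts became 372 and 295.

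Against cycling cells the Gzmb+Rec+ cells had similar Prf1 (-0.14 and -0.04) and Gzmb (-0.14 and -0.03), and more Lag3 (0.69 and 0.79). Pclaf, a replication factor outside the rule, was at 12.9 against 500.2 CPM in NC. The interferon-induced genes Ifit3, Ifit1 and Isg15 were higher, with Ifit3 at 62.1 against 13.7 CPM in NC and 79.0 against 16.9 CPM in WD, Ifit1 by 2.24 and 2.15, and Isg15 by 1.67 and 1.53. Ccl5 (1.66 and 1.62), Gzma (1.70 and 2.04) and the chemokine receptors Ccr2 (1.63 and 1.64) and Cxcr3 (2.13 and 0.93) were higher too. In all, 408 of 6926 genes (5.89%) were higher in both libraries and 763 (11%) lower.

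Whether the diet differences were shared by other cells varied by list. In the other cells Prf1 (-1.30) and Mt1 (-1.31) were lower in WD as well, and Junb was higher (0.77). Glycolysis genes summed to a log2 ratio of -0.32 (-0.35 to -0.29) in Gzmb+Rec+ cells to -0.29 in cycling cells, -0.22 (-0.26 to -0.18) in cells with Gzmc to Gzmn and -0.11 (-0.16 to -0.06) in the reference cells, and to -0.03 (-0.10 to 0.04) in Gzmb+Rec- and -0.03 (-0.07 to 0.01) in Gzmb-Rec+ cells. Prf1 was at 82.4 and 73.3 CPM in Gzmb+Rec- cells (-0.17, -0.59 to 0.26) and at 152 and 58.6 CPM in Gzmb-Rec+ cells (-1.38). Differences between populations were not tested.

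**Figure D5:**
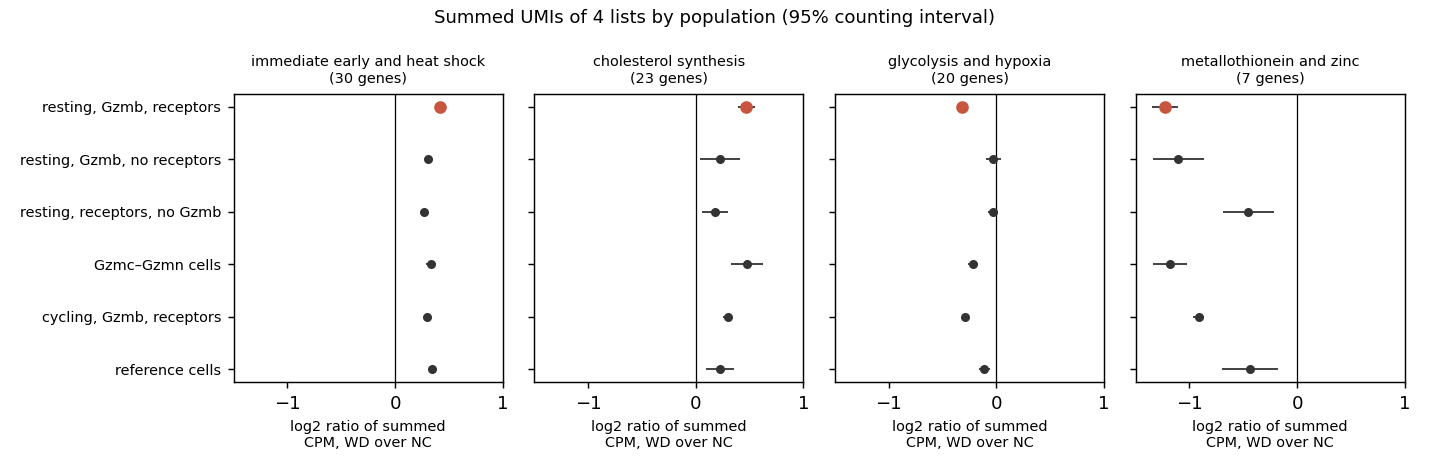
Log2 ratio of summed CPM, WD over NC (x axis, 95% counting intervals), of 4 gene lists in 6 populations (y axis), with the Gzmb+Rec+ cells in red. Metallothionein and zinc genes lie below 0 and immediate early genes above 0 in all 6, while glycolysis lies at -0.32 in Gzmb+Rec+ cells, at -0.03 in the 2 resting populations that lack receptors or Gzmb, and at -0.11 to -0.29 in the others.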

How the data were processed

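Per the labels, each library held CD8-sorted tumor-infiltrating lymphocytes run on 10x Chromium 3′ chemistry. The deposited values are UMI counts per gene and cell, which the authors made with Cell Ranger 6.0.2 on mm10 (submitters' processing notes). The tables hold 32285 genes, of which 99.6% of IDs were found in the GRCm38 annotation. The cells, gene lists and comparisons were chosen with earlier results of these data known. UMIs were summed over cells and given as CPM. Genes with at least 10 CPM in 1 library were compared, genes of the rule left out. Genes were named from the lists, from the 12 extremes on each side, and from the 10 genes on each side that differed most between populations in the same direction in both libraries. For shares, cells were thinned to 5000 UMIs and shallower cells left out. Scrublet marked 2 of 4745 cells and was taken not to have worked, so doublets were kept, and removal of the highest 5% of scores was an alternative. Of the Gzmb+Rec+ cells, 31 in NC and 3 in WD had scores in the highest 5% of their library, and the part of doublets was not tested. The interval code was tested on simulated data. Other alternatives changed each limit of the rule, the quality limits, the scaling and the depth. Python 3.11.15, numpy 2.4.6, scipy 1.17.1, pandas 2.3.3, scanpy 1.11.5, matplotlib 3.10.9, R 4.3.3 and edgeR 4.0.16 (TMM factors) were used. Some genes of the lists are not reported by name here.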

Additional observations from a re-analysis of the deposited data

Results flagged for a closer look

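Several genes had a ratio of WD over NC that lay on opposite sides of 0, with intervals that did not reach 0, in Gzmb+Rec+ cells and in another population. None of these differences was tested, since each diet has 1 library. The intervals count UMIs and do not cover the spread between cells. In Gzmb+Rec+ cells most UMIs of Penk and Ccl1 lay in few cells, and their spread over cells of the other populations is not given here. Penk had a log2 ratio of -0.83 (-1.70 to -0.04, on 80 NC and 16 WD UMIs) in the cells with Gzmc to Gzmn and 2.38 in Gzmb+Rec+ cells. Ccl1 had -2.49 (-2.81 to -2.19) in Gzmb-Rec+ cells against 2.23. Gm26917 had -0.77 in Gzmb+Rec-, -0.20 in Gzmb-Rec+ and -0.52 (-0.67 to -0.38) in the reference cells against 1.30, and Cd74 had -1.37 (-1.99 to -0.77) in the reference cells against 1.54. Tnfrsf4 had -2.13 (-3.10 to -1.24) in Gzmb+Rec- and -0.47 (-0.57 to -0.37) in cycling cells against 0.92. Fgl2 had 1.15 in Gzmb+Rec- cells against -1.06, and Isg20 had 0.39 (0.04 to 0.75) there against -0.60. The granzyme inhibitor genes Serpinb9 and Serpinb6b had 0.37 (0.04 to 0.69) and 0.88 (0.66 to 1.09) in the cells with Gzmc to Gzmn, of which there were 27 in WD, against -1.06 and -0.73.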

How the results depend on the processing

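The share of Gzmb+Rec+ cells was the lower in WD under every alternative run. With at least 3 Gzmb UMIs it was 16.5% in NC and 9.70% in WD, with at least 3 receptor UMIs 16.5% and 9.39%, with mitosis under 2 and replication under 4 UMIs 13.4% and 7.12%, among cells of intermediate depth (from 5000 UMIs, very deep cells left out) 24.0% and 14.0%, and among cells with Gzmb 38.1% and 26.9%. It was 16.4% in NC without any Gzmc to Gzmn UMI and 23.2% after thinning to 5000 UMIs. Cells with all 3 receptors were 28.2% and 12.5% after thinning. The counts of genes past the fold depended on depth and limits. Higher and lower genes in WD numbered 726 and 336 with the stricter mitosis and replication limits, 804 and 484 at 5000 UMIs, 1132 and 945 at 2000 UMIs, 1799 and 1060 with at least 1 UMI in each library, 91 and 42 at 50 CPM and 124 and 60 at a fold of 2. With the mean of each cell's CPM 319 genes were lower. In cells with all 3 receptors, an alternative chosen after seeing the data, 719 were higher and 434 lower, and the type I interferon median was -0.58. That median turned to 0.020 with the mean of each cell's CPM. The glycolysis median ran from -0.51, with the stricter proliferation limits, to -0.22 over the alternatives. Against cells with Gzmc to Gzmn, thinning gave 372 higher and 295 lower genes. Cd74 turned to -0.38 with all deposited cells. The medians of the cholesterol (0.33 to 0.76), immediate early (0.41 to 0.68) and cytotoxic granule lists (-0.32 to -0.16) kept their sign in every alternative run for them. Where a value moved, the cause was not tested.

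Each diet has 1 library, so no interval covers the spread between mice. No paired analysis was possible because each group has 1 library and no test was made.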
